A study of Mus musculus with 50 samples.

Results

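The genes described here are 38 genes of the endoplasmic reticulum (ER) stress and amino acid response. They are named genes of the pathway, written out in full rather than picked by a threshold. The list was chosen with earlier results of these data known, so its counts are descriptive and give no independent support. In the probe table, 36 of the 38 had a named probe set, 1 each, out of 19494 genes tested. Manf and Pdia4 had no named probe set and have no values here. By role, the 36 comprised 8 sensors and transcription factors (Ern1, Ern2, Eif2ak3, Atf6, Xbp1, Atf4, Ddit3, Atf3) and 10 chaperones and folding factors (Hspa5, Hsp90b1, Hyou1, Dnajb9, Dnajb11, Dnajc3, Sdf2l1, Calr, Canx, Creld2). They further comprised 3 disulfide isomerases (P4hb, Pdia3, Pdia6) and 6 genes of degradation and export (Herpud1, Sel1l, Syvn1, Edem1, Derl1, Derl3). The last groups were 4 late stress targets (Trib3, Chac1, Sesn2, Ppp1r15a) and 5 enzymes of amino acid and one-carbon synthesis (Asns, Psat1, Phgdh, Shmt2, Mthfd2).

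RNA came from whole colon tissue, 1 Affymetrix array per mouse, in 10 groups of 5 arrays. The labels disagree on age: each sample is described as 11 weeks old, the series text gives 10 to 12 weeks, and a further label gives a range of weeks that starts at 10 and has another upper end on each sample. Array titles ran in 2 number series, called here the first series (titles 1 to 30) and the second series (titles 86 to 124); the labels do not say what separates them. The first series held Fadd fl/fl (floxed controls), FADD IEC-KO and CASP8 IEC-KO, in which Fadd or Casp8 is deleted in intestinal epithelial cells, together with CASP8 IEC-KO Mlkl -/-, FADD IEC-KO Mlkl -/- and FADD IEC-KO Zbp1 -/-. The second series held Casp8 fl/fl, FADD IEC-KO, CASP8 IEC-KO and FADD IEC-KO RIPK3 IEC-KO. All co-deletion groups thus carry the same epithelial Fadd or Casp8 deletion as the single knockout they are compared with, Zbp1 and Mlkl are labelled as -/-, and Ripk3 as deleted in the epithelium. In each series only 1 floxed line was present, so FADD IEC-KO of the second series was compared with Casp8 fl/fl and CASP8 IEC-KO of the first with Fadd fl/fl. The sources used here do not give the Cre driver.

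The ER folds secreted and membrane proteins. When unfolded proteins build up there, the sensors IRE1 (Ern1, with its gut form Ern2), PERK (Eif2ak3) and ATF6 start the unfolded protein response, which raises chaperones such as BiP (Hspa5), disulfide isomerases and the machinery that exports misfolded proteins for degradation. IRE1 splices Xbp1 mRNA to make an active transcription factor, and the array reads Xbp1 as a whole, so that spliced and unspliced forms cannot be told apart here. PERK and related kinases phosphorylate eIF2, which favours translation of ATF4; ATF4 drives CHOP (Ddit3), Trib3, Chac1 and genes of amino acid supply such as Asns and Psat1. Goblet cells of the colon epithelium and plasma cells of the lamina propria secrete heavily and hold much ER, so in whole tissue these genes report on several cell types at once.

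The ER stress response element, the site that ATF6 and the CCAAT-binding factor NF-Y recognise together, was searched as CCAAT followed by CCACG after a gap of 9 bases, on both strands of each promoter, from 250 bases before to 50 bases after the gene start (RefSeq, GRCm38.p6). Promoters were in the table for 33 of the 38 genes, all but Atf6, Ern2, Manf, Hyou1 and Derl1. The element was present in 9 of the 33, against 0.137% of all 27025 genes with a promoter. The matches are shown because all 9 genes lie in the chaperone, disulfide isomerase and degradation groups whose values are given further on; capitals mark the fixed letters, and each line gives 20 bases on either side, read 5′ to 3′ on the strand that carries the motif.
Hspa5 (chr2:34772005-34772063, plus strand): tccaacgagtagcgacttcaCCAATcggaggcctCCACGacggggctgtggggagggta
Calr (chr8:84847055-84847113, plus strand): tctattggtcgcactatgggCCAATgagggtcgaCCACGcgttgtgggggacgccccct
Derl3 (chr10:75893222-75893280, minus strand): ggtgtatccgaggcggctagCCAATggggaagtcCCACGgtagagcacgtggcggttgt
Hsp90b1 (chr10:86705618-86705676, minus strand): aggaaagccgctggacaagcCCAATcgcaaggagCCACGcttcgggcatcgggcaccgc
Hsp90b1 (chr10:86705513-86705571, plus strand): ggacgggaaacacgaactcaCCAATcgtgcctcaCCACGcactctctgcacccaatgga
Canx (chr11:50325780-50325838, minus strand): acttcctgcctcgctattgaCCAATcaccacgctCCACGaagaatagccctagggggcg
Pdia6 (chr12:17266471-17266529, plus strand): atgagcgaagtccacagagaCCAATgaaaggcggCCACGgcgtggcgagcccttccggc
Dnajc3 (chr14:118937807-118937865, plus strand): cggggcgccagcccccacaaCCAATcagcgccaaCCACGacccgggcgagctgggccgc
Creld2 (chr15:88819500-88819558, minus strand): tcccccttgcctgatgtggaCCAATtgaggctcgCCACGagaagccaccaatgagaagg
Syvn1 (chr19:6046512-6046570, plus strand): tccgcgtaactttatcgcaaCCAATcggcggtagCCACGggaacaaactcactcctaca
Hsp90b1 carried 2 matches, on opposite strands. The distance from the upstream end of the match to the gene start ran from 44 bases in Syvn1 to 212 bases in Hsp90b1, with 65 bases in Hspa5. Each match is a description of these letters, not of a bound site.

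The amino acid response element, where ATF4 binds with a C/EBP partner, was searched as TGATGNAA in the same windows. It was present in 5 of 33 promoters (Atf3, Chac1, Trib3, Asns and Herpud1), against 4.51% of all genes. No promoter held both motifs. The matches before the gene start are shown so that Asns, whose values stand apart from those of Chac1 and Atf3 below, can be set beside them; the match in Trib3 lay 14 bases after the start and is not shown.
Atf3 (chr1:191183416-191183463, plus strand): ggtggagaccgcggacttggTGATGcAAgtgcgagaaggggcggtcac
Chac1 (chr2:119351029-119351076, minus strand): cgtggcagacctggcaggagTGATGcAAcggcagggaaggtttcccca
Asns (chr6:7693205-7693252, minus strand): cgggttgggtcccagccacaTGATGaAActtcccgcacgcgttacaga
Herpud1 (chr8:94386297-94386344, minus strand): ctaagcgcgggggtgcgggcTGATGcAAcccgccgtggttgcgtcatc
The motif TGACGTGG, also an ATF6 site, was in none of the 33 promoters and in 0.714% of genes, and the core ACGTGGC, which shares letters with it, was in 3 (P4hb, Herpud1, Derl3) and in 2.95% of genes.

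Facts of the whole series bear on these values. Array medians lay between 6.50 and 6.57 on the log2 scale, and the precision is limited by the 5 arrays of each group. The labels do not name litters or days. The p-values rest on the spread between mice within groups, estimated once per gene over all 10 groups rather than from the groups compared. Groups differed in that spread: the mean over the 36 genes had an SD of 0.16 in FADD IEC-KO of the first series and 0.03 in Casp8 fl/fl. Fadd averaged 7.38 ± 0.18 (SD, n = 5) for Fadd fl/fl arrays and 6.39 ± 0.12 in FADD IEC-KO of the first series, and Casp8 10.50 in Casp8 fl/fl and 8.98 in CASP8 IEC-KO of the second. Epcam, the general epithelial marker, averaged between 11.85 and 11.91 in all 10 groups, and the goblet cell mucin Muc2 between 12.60 and 12.87. Array means over the whole list of epithelial markers spread more widely in FADD IEC-KO. They ran from 10.57 (array 22) to 11.23 in the first series, beside 10.95 to 11.14 in Fadd fl/fl. In the second they ran from 10.72 (array 117) to 11.30, beside 10.86 to 11.06 in Casp8 fl/fl. The goblet list of the first series ran from 10.80 (array 22) to 11.34, beside 11.06 to 11.26 in Fadd fl/fl. The arrays of FADD IEC-KO were heterogeneous. Array 22 averaged 9.25 and array 23 averaged 7.52 over 8 neutrophil markers, array 117 averaged 7.87 and array 124 averaged 6.45, while the floxed arrays lay between 4.51 and 4.89. Among the FADD IEC-KO arrays, 22, 23 and 117 also had the lowest means over 10 smooth muscle markers. Results on FADD IEC-KO are therefore given also without these arrays.

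**Figure D1:**
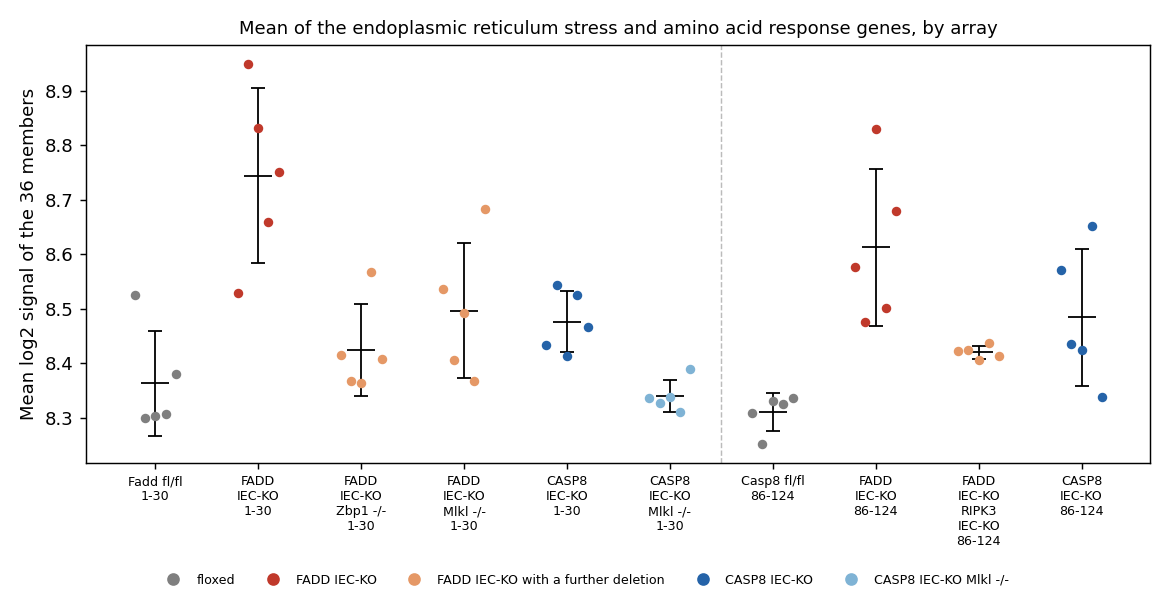
Mean log2 signal over the 36 genes on each array, by group; points are arrays and bars the group mean with its SD (n = 5). The FADD IEC-KO arrays of both series lie above the floxed arrays of their series, with group means of 8.74 and 8.61 against 8.36 and 8.31. In the second series the CASP8 IEC-KO and FADD IEC-KO RIPK3 IEC-KO arrays also lie above Casp8 fl/fl.

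The mean over the 36 genes was highest in FADD IEC-KO. It was 8.74 ± 0.16 in the first series and 8.61 ± 0.14 in the second, against 8.36 ± 0.10 for Fadd fl/fl and 8.31 ± 0.03 for Casp8 fl/fl (mean ± SD, n = 5). CASP8 IEC-KO averaged 8.48 ± 0.06 and 8.48 ± 0.13. The co-deletions lay between 8.34 ± 0.03 in CASP8 IEC-KO Mlkl -/- and 8.50 ± 0.12 in FADD IEC-KO Mlkl -/-, with 8.42 ± 0.08 for Zbp1 loss and 8.42 ± 0.01 for RIPK3 loss on FADD IEC-KO. Every FADD IEC-KO array exceeded every floxed array of its series (8.53 for the lowest, array 21, against 8.52 for the highest, array 26, in the first series, a margin within the spread of either group). In the second series this also held for CASP8 IEC-KO (lowest array 8.339) and FADD IEC-KO RIPK3 IEC-KO (lowest 8.406), beside a highest Casp8 fl/fl array of 8.337. Their means differed from Casp8 fl/fl by 0.17 (SE 0.06) and 0.11 (SE 0.02). The other groups of the first series overlapped with Fadd fl/fl. In whole tissue a change in the number of cells of a type and a change in RNA per cell cannot be told apart.

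Loss of FADD in the epithelium was compared with Fadd fl/fl in the first series. Most of the ER folding genes and all of the amino acid genes were higher in FADD IEC-KO: 24 of 36 rose and 1 (Ern2) fell at an adjusted p under 0.05 (limma, Benjamini-Hochberg over 19494 genes). Over all genes tested 8.59% rose and 10.1% fell. The median difference of the 36 was 0.39 log2 units, 34 lying above 0, beside a median of -0.02 over all genes; a difference of 1 corresponds to 2-fold. Chaperones (9 of 10), disulfide isomerases (3 of 3) and the amino acid group (5 of 5) rose, whereas none of the 4 late stress targets passed. In the second series, against Casp8 fl/fl, 18 of 36 rose and none fell, beside 6.80% of all genes that rose and 4.25% that fell, and the median difference was 0.28 beside -0.03.

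**Figure D2:**
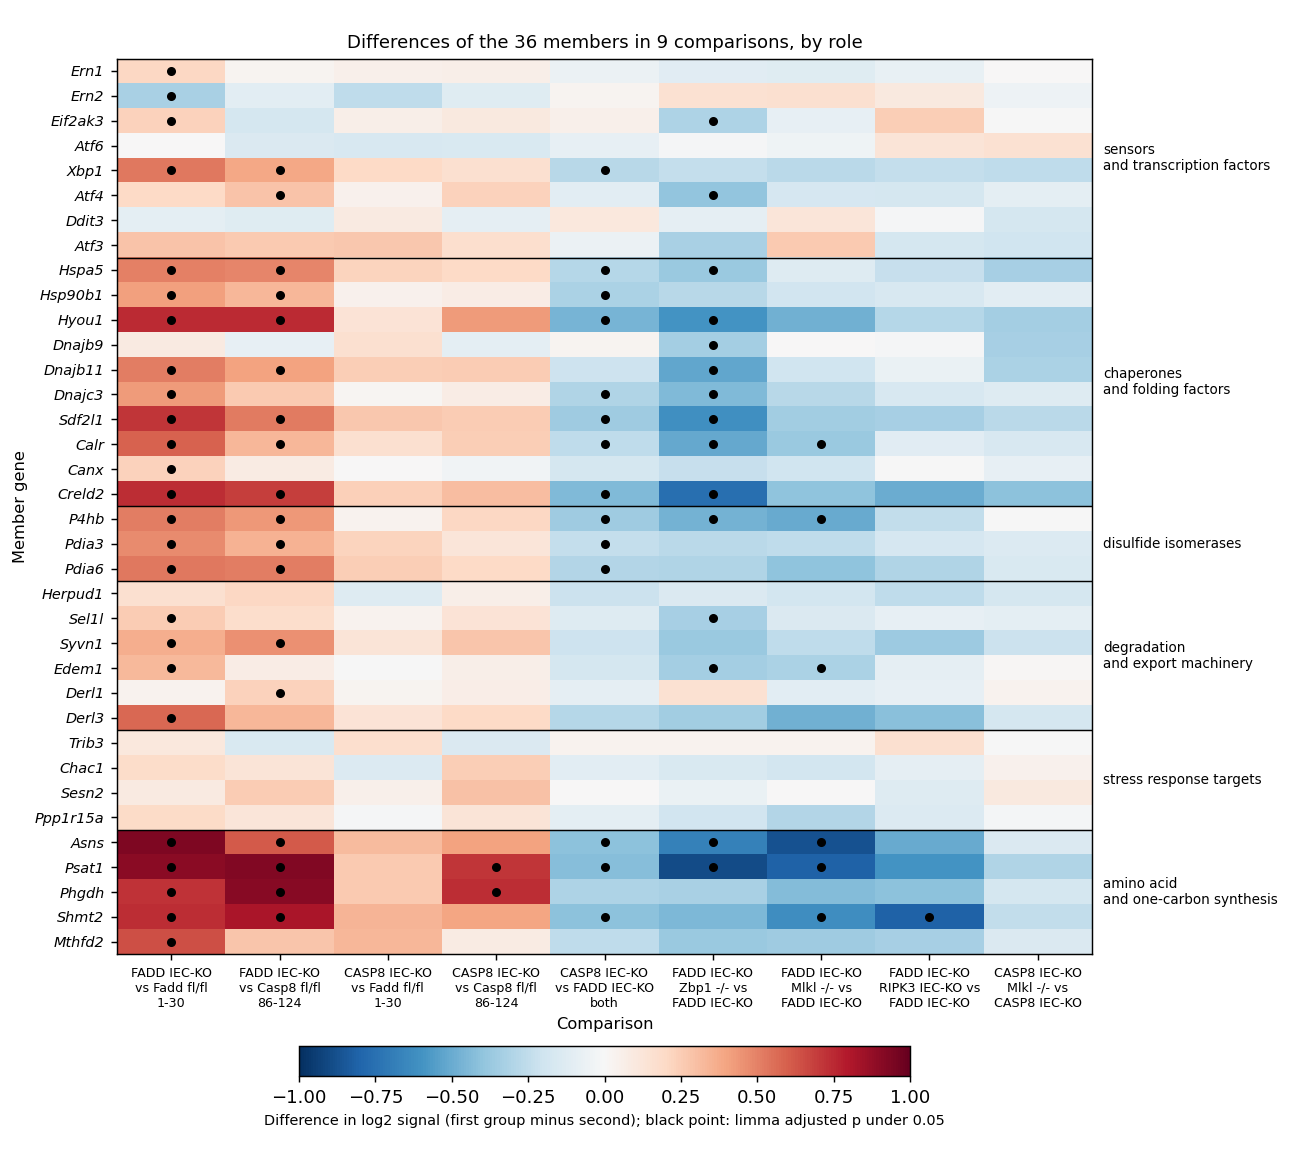
Heat map of the difference in log2 signal (first group minus second) of the 36 genes, in rows by role, for 9 comparisons in columns; red is higher, blue is lower, and a black point marks an adjusted p under 0.05 (limma). Chaperones, disulfide isomerases and amino acid enzymes are red in both columns of FADD IEC-KO against floxed, apart from Dnajb9, and the 4 stress response targets carry no black point in any column.

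Among the sensors and transcription factors, Xbp1 moved most clearly. Values are given throughout in the order of title numbers, which is 26 to 30 for Fadd fl/fl, 21 to 25 for FADD IEC-KO of the first series, 86, 91, 98, 105, 119 for Casp8 fl/fl and 89, 95, 117, 120, 124 for FADD IEC-KO of the second. Xbp1 read 10.25, 9.95, 10.00, 9.99 and 10.16 in Fadd fl/fl and 10.45, 10.66, 10.73, 10.47 and 10.65 in FADD IEC-KO. It read 10.01, 9.75, 10.22, 9.87 and 10.02 in Casp8 fl/fl and 10.44, 10.24, 10.38, 10.24 and 10.49 in FADD IEC-KO of the second series. The groups did not overlap in either series, though arrays 95 and 120 stood only just above array 98. Xbp1 was higher by 0.52 (SE 0.09, adjusted p = 0.000211, limma) and by 0.38 (SE 0.09, adjusted p = 0.00556).

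The sensor mRNAs themselves moved little. Ern1, encoding IRE1, read 8.74, 8.56, 8.68, 8.66 and 8.76 in Fadd fl/fl and 8.80, 8.93, 8.97, 8.83 and 8.91 in FADD IEC-KO, a rise of 0.21 with an adjusted p of 0.0489. Ern1 of the second series read 8.70, 8.79, 8.77, 8.91 and 8.49 against 8.59, 8.91, 8.86, 8.81 and 8.64, so the groups overlapped throughout (difference 0.03, 95% interval -0.12 to 0.18). Ern2, the IRE1 form of goblet cells, was the only gene that fell. It read 9.36, 9.22, 8.94, 9.17 and 9.08 in Fadd fl/fl and 9.01, 8.46, 8.73, 9.03 and 8.93 in FADD IEC-KO, with array 22 lowest and some overlap (-0.32, SE 0.10, adjusted p = 0.0162). Ern2 of the second series read 9.03, 8.99, 8.98, 8.93 and 8.82 against 9.05, 8.87, 8.49, 9.02 and 8.78, with array 117 lowest (-0.11, adjusted p = 0.525). Beside this, the 10 goblet cell markers had 2 that rose and 2 that fell in the first series and 1 each way in the second; their part in the result was not tested. Eif2ak3, encoding PERK, rose by 0.23 in the first series and differed by -0.17 (adjusted p = 0.145) in the second.

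The PERK and amino acid branch factors gave small differences. Atf4 read 9.93, 9.64, 9.71, 9.78 and 9.80 against 9.75, 10.28, 10.06, 9.98 and 9.81 in the first series, where arrays 21 and 25 lay within the floxed range (0.20, adjusted p = 0.144). In the second it read 9.72, 9.52, 9.67, 9.61 and 9.20 against 9.89, 9.79, 9.85, 9.69 and 9.93, with overlap at array 120 only, and rose by 0.28 (adjusted p = 0.048). Ddit3, encoding CHOP, read 8.08, 8.54, 8.21, 8.17 and 8.08 against 8.24, 8.32, 8.08, 7.92 and 8.04, and 8.47, 7.96, 8.38, 8.14 and 7.98 against 8.06, 8.07, 7.98, 7.93 and 8.28 in the second series. The groups overlapped, with arrays 24 and 25 and array 120 a little below the lowest floxed array, and the differences were -0.09 (95% interval -0.31 to 0.12) and -0.12 (-0.34 to 0.09). ATF4 is controlled mainly through translation and IRE1 and PERK through phosphorylation, none of which an mRNA array measures. Atf3 differed by 0.28 and 0.26 and Atf6 by 0.00 and -0.15, and neither passed.

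**Figure D3:**
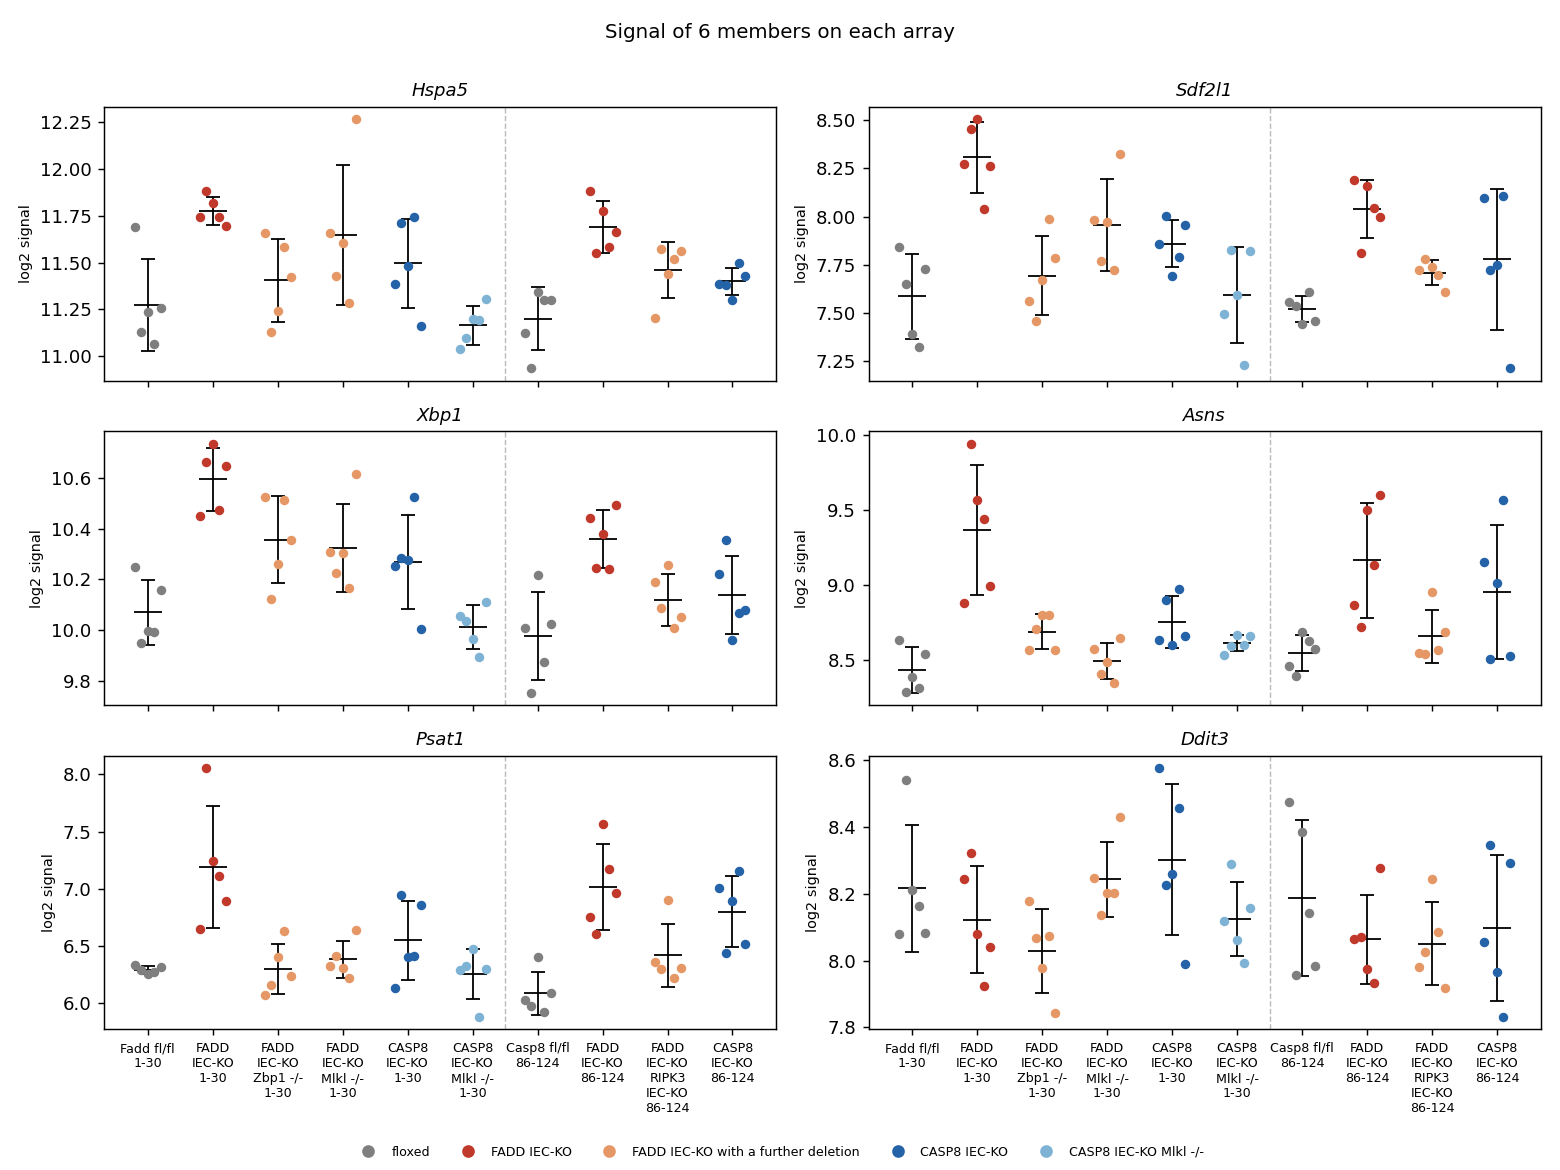
Log2 signal of Hspa5, Sdf2l1, Xbp1, Asns, Psat1 and Ddit3 on each array by group, with bars for the group mean and SD (n = 5); each gene has its own axis. FADD IEC-KO arrays stand above the floxed arrays of their series for the first 5 genes and overlap them for Ddit3.

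Among the 10 chaperones 9 rose in the first series and 7 in both. Hspa5, encoding BiP, the main ER chaperone and the brake on the sensors, read 11.69, 11.13, 11.23, 11.06 and 11.26 in Fadd fl/fl and 11.74, 11.88, 11.82, 11.74 and 11.70 in FADD IEC-KO. Hspa5 of the second series read 11.13, 10.94, 11.34, 11.30 and 11.30 against 11.88, 11.55, 11.77, 11.58 and 11.66. The groups did not overlap, though the floxed array 26 was nearly level with FADD IEC-KO array 25. The differences were 0.50 (SE 0.12, adjusted p = 0.0037) and 0.49 (SE 0.12, adjusted p = 0.00764). Sdf2l1, a factor of the DnaJ and BiP chaperone complex, read 7.84, 7.65, 7.39, 7.33 and 7.73 against 8.27, 8.45, 8.50, 8.04 and 8.26. In the second series it read 7.56, 7.54, 7.44, 7.61 and 7.46 against 8.19, 7.81, 8.16, 8.04 and 8.00, again without overlap. Sdf2l1 rose by 0.72 (SE 0.13, adjusted p = 0.000195) and 0.52 (SE 0.13, adjusted p = 0.00591).

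Creld2, a folding factor of the ER lumen, read 7.99, 7.39, 7.57, 7.29 and 7.37 in Fadd fl/fl and 7.94, 8.66, 8.52, 8.01 and 8.17 in FADD IEC-KO, where array 26 of the floxed group stood above array 21. Creld2 of the second series read 7.57, 7.15, 7.44, 7.34 and 7.61 against 8.02, 7.62, 8.75, 7.94 and 8.22; array 95 and array 119 were nearly level. It rose by 0.74 and 0.69. Hyou1, a nucleotide exchange factor for BiP, rose by 0.75 and by 0.74 (SE 0.15, adjusted p = 0.00100 in the second series), and the lectin chaperone Calr by 0.59 (SE 0.10, adjusted p = 0.000188) and 0.33. Hsp90b1 (0.41 and 0.33) and Dnajb11 (0.51 and 0.41) also rose in both series. Dnajc3 and Canx rose in the first series (0.43 and 0.23) and differed by 0.27 (adjusted p = 0.0694) and 0.08 in the second. Dnajb9, a known XBP1 target, was the chaperone that passed in neither, at 0.09 and -0.08. The 3 disulfide isomerases, which form and rearrange the bonds of secreted proteins, rose in both series, P4hb by 0.51 and 0.44, Pdia3 by 0.47 and 0.35, and Pdia6 by 0.52 and 0.51.

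In the degradation and export group 4 of 6 rose in the first series and 2 in the second, and only Syvn1, the ubiquitin ligase of ER-associated degradation, rose in both (0.37 and 0.46). Derl3, a channel component prominent in secretory cells, read 6.19, 5.79, 6.03, 6.23 and 6.32 in Fadd fl/fl and 6.23, 7.01, 6.73, 6.30 and 7.15 in FADD IEC-KO. In the second series it read 6.16, 6.24, 6.10, 6.16 and 6.04 against 6.26, 6.20, 7.13, 6.11 and 6.66. The high arrays were 22, 23 and 25 and 117 and 124, and the others lay in or close to the floxed range. Derl3 rose by 0.57 (adjusted p = 0.00846) in the first series and differed by 0.33 (adjusted p = 0.173) in the second. Its high arrays were also those with the highest means over 10 plasma cell markers, 7.36, 7.26, 7.61, 7.41 and 7.00 for arrays 22, 23, 25, 117 and 124, while floxed arrays ran from 5.58 to 6.36 in the first series. Their part in the result was not tested. Edem1 (0.33 and 0.08) and Sel1l (0.26 and 0.17) passed in the first series and Derl1 (0.04 and 0.23) in the second, and Herpud1 (0.16 and 0.21) in neither.

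The late stress targets did not pass in either series. Trib3, a pseudokinase induced through ATF4 and CHOP, read 5.85, 5.52, 5.48, 5.65 and 5.77 against 5.65, 6.02, 5.84, 5.60 and 5.67, and 5.63, 6.16, 5.71, 5.99 and 5.83 against 5.74, 5.55, 5.80, 5.57 and 5.90 in the second series. Chac1, which breaks down glutathione, read 5.26, 5.29, 5.48, 5.55 and 5.32 against 5.10, 5.71, 5.46, 5.56 and 6.01, and 5.18, 5.71, 5.27, 5.02 and 5.14 against 5.13, 5.24, 5.66, 5.13 and 5.80. All these groups overlapped. Trib3 differed by 0.10 (95% interval -0.11 to 0.32) and -0.15 (-0.37 to 0.07), and Chac1 by 0.19 (-0.11 to 0.48) and 0.13 (-0.17 to 0.42). Both probe sets were dim, Trib3 with a mean of 5.78 over all arrays and Chac1 with 5.37, where differences can be compressed. Phgdh, described below, had a mean of 5.93, close to that of Trib3, and rose in both series. The part of dimness in these results was not tested. Sesn2 (0.09 and 0.25) and Ppp1r15a (0.19 and 0.12) did not pass, and none of the 4 reached an unadjusted p under 0.05 in the first series, beside 30.9% of all genes.

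The amino acid and one-carbon enzymes gave the largest median difference of any role group, 0.74 in the first series and 0.82 in the second. Asns, which makes asparagine and is a classical ATF4 target, read 8.63, 8.28, 8.39, 8.31 and 8.54 in Fadd fl/fl and 8.88, 9.94, 9.56, 9.44 and 8.99 in FADD IEC-KO. Its second-series values were 8.46, 8.39, 8.69, 8.62 and 8.57 against 8.87, 8.71, 9.50, 9.13 and 9.60. No array overlapped, but array 95 stood barely above array 98, and the knockout arrays spread more widely than the floxed ones. Asns rose by 0.93 (SE 0.16, adjusted p = 0.000116) and 0.62 (SE 0.16, adjusted p = 0.00814). Phgdh, which opens the serine pathway, rose by 0.72 (SE 0.14, adjusted p = 0.000384) and 0.91 (SE 0.14, adjusted p = 3.1e-05). Psat1, the next enzyme of that pathway, rose by 0.90 (SE 0.18, adjusted p = 0.000542) and 0.93 (SE 0.18, adjusted p = 0.000579).

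Per-array values of Psat1, Phgdh and Shmt2 were added after their values were seen. Psat1 read 6.34, 6.28, 6.25, 6.27 and 6.31 in Fadd fl/fl and 6.64, 8.05, 7.24, 7.11 and 6.89 in FADD IEC-KO, with array 22 far above the rest. Psat1 of the second series read 6.03, 5.97, 6.40, 5.92 and 6.09 against 6.75, 6.61, 7.56, 7.17 and 6.96. Phgdh read 5.18, 5.49, 5.37, 5.50 and 5.65 in Casp8 fl/fl and 6.40, 6.07, 6.58, 6.40 and 6.26 in FADD IEC-KO of that series, with a clear gap between the groups. Shmt2, the mitochondrial enzyme that takes a one-carbon unit from serine, rose by 0.74 and by 0.82 (SE 0.17, adjusted p = 0.00127), while Mthfd2, which acts next in the mitochondrion, rose by 0.64 in the first series and differed by 0.28 (adjusted p = 0.177) in the second.

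The FADD comparisons of the first and second series share no arrays. Of the 36 genes, 16 rose in both. That is 16 of the 25 that passed in the first series and 16 of the 18 that passed in the second. The same count was not made over all genes, so these shares are a description only. The 16 were Xbp1, 7 of 10 chaperones, all 3 disulfide isomerases, Syvn1, and 4 of the 5 amino acid enzymes. Of the other 9 of the first series 8 rose and Ern2 fell, and 2 (Atf4, Derl1) rose only in the second. The difference between the series was itself tested: 0 of 36 passed (limma), beside 0.123% of all genes, and 3 had an unadjusted p under 0.05, beside 10.7%. The largest was that of Eif2ak3, 0.40 (95% interval 0.18 to 0.62, adjusted p = 0.103). The floxed line and the series differ together between these comparisons and cannot be told apart.

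**Figure D4:**
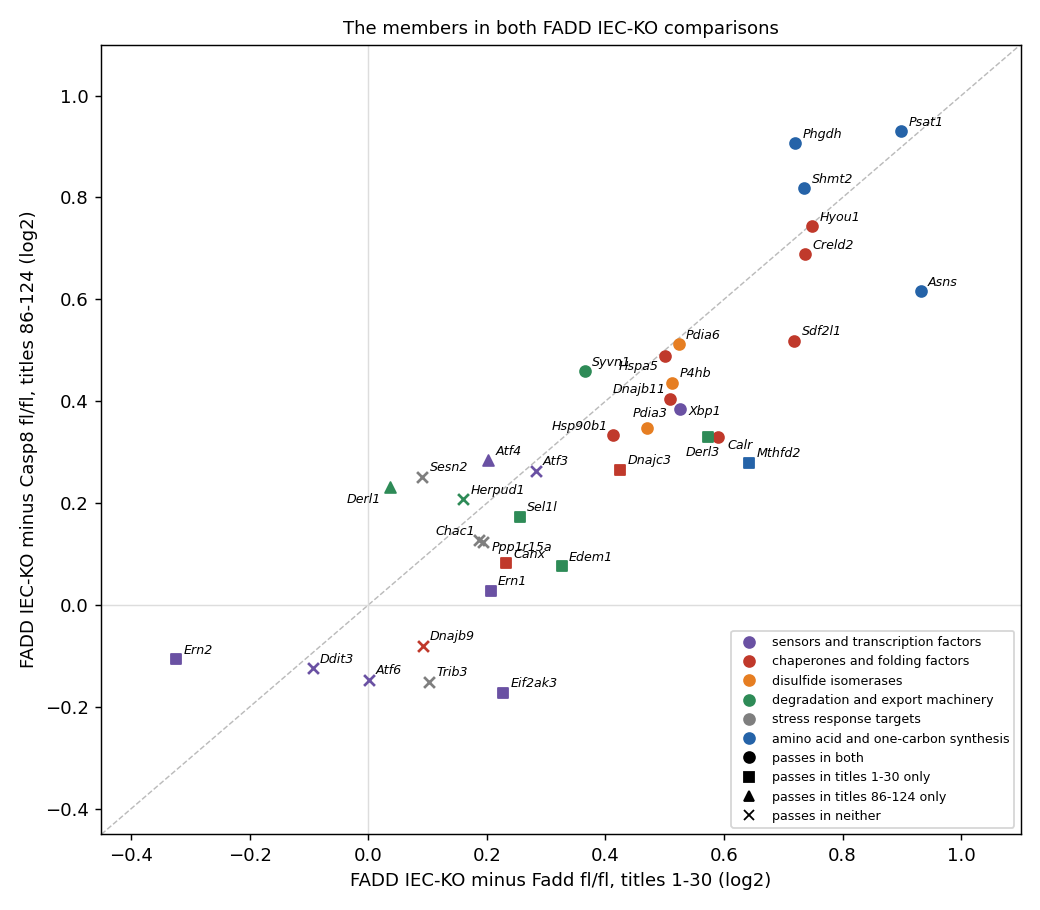
Difference of FADD IEC-KO from floxed in the first series (horizontal axis, against Fadd fl/fl) and in the second (vertical axis, against Casp8 fl/fl), in log2 units, with 1 point per gene, colour for role and shape for the series in which it passed. Psat1, Phgdh, Shmt2, Hyou1 and Creld2 lie at the upper right, and the 4 stress response targets (crosses) lie between -0.15 and 0.25 on both axes.

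Of the 9 genes with the ER stress response element all 9 rose in the first series and 6 in the second, against 14 and 10 of 23 measured genes whose promoter lacked it. Their median differences were 0.50 and 0.33, against 0.28 and 0.26. Of the 5 genes with the amino acid response element only Asns rose, in both series; Atf3, Chac1, Trib3 and Herpud1 did not pass in either. No test was made on these motif groups, which follow the roles of the genes.

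Markers of other cells moved with FADD loss. In the first series 6 of 10 plasma cell markers rose (Jchain by 2.66, Mzb1 by 2.20), as did 8 of 8 neutrophil and 8 of 8 macrophage markers, and 10 of 10 smooth muscle markers fell, with a median of -1.20. In the second series 1 of 10 plasma cell, 1 of 8 neutrophil and 7 of 8 macrophage markers rose and 4 of 10 smooth muscle markers fell. Of 5 T cell markers 4 and 1 rose, and of 5 fibroblast markers 2 fell in each series. The endothelial list mean was 7.17 in FADD IEC-KO against 7.42 in Fadd fl/fl, and 7.19 against 7.53 in Casp8 fl/fl in the second series. The pancreatic acinar list mean was 5.44 against 5.63 in the first series and 5.51 against 5.75 in the second. The array means over the macrophage markers ran from 7.32 to 8.47 in FADD IEC-KO of the first series and from 6.82 to 8.34 in the second, against 6.62 to 7.37 in Fadd fl/fl and 6.61 to 7.03 in Casp8 fl/fl. The part of these markers in the differences above was not tested.

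**Figure D5:**
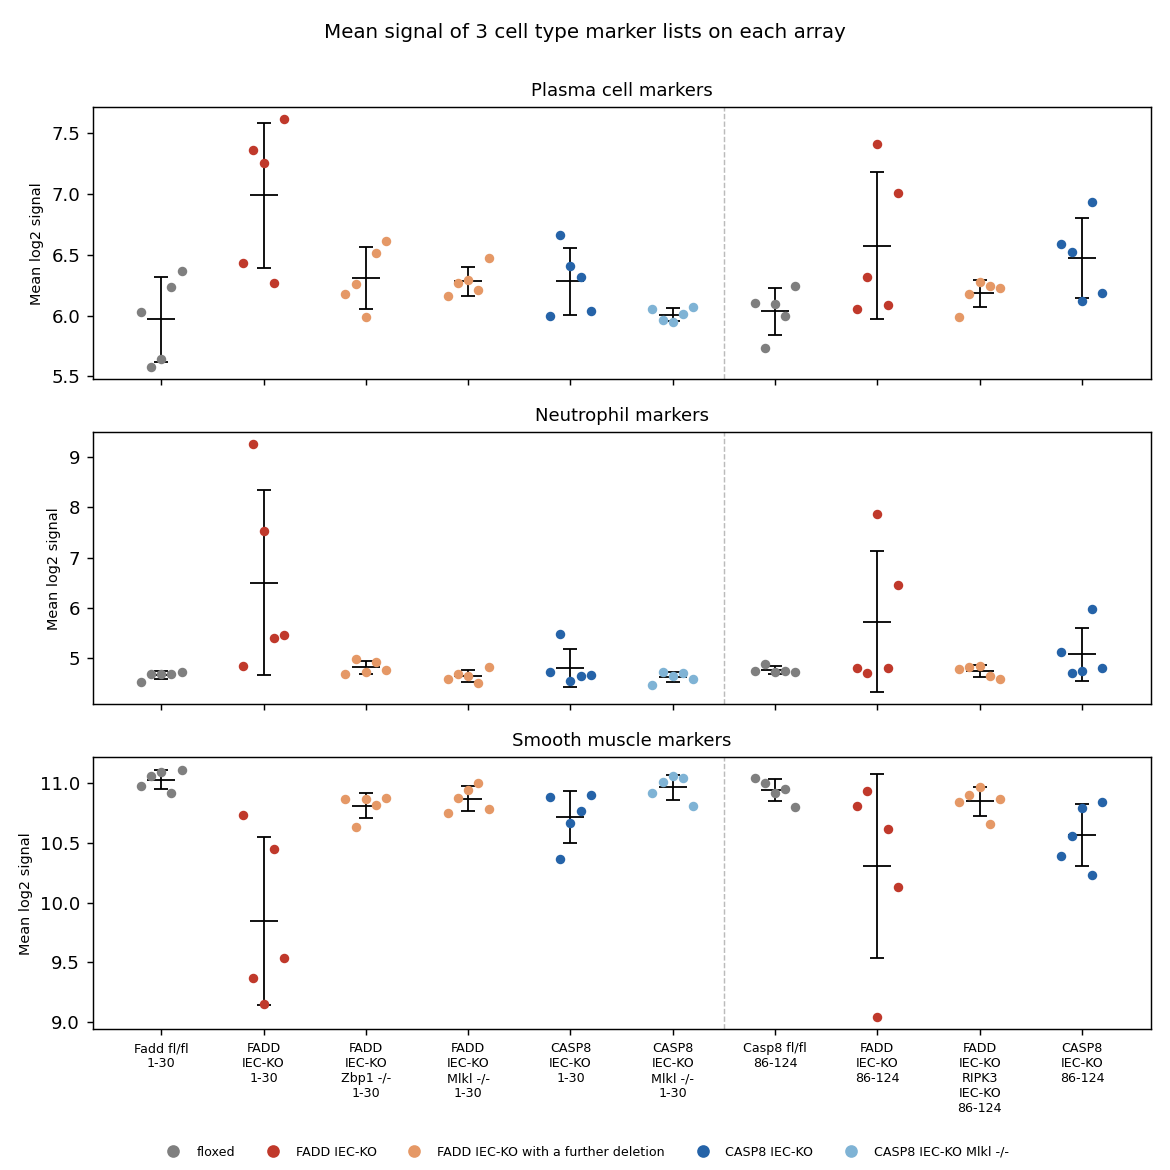
Mean log2 signal over 10 plasma cell, 8 neutrophil and 10 smooth muscle markers on each array, by group, with bars for the group mean and SD (n = 5). The FADD IEC-KO arrays spread widely, array 22 reaching 9.25 for neutrophil markers, while all co-deletion arrays lie between 4.47 and 4.97 there.

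Arrays 22 and 23 were, like arrays 117 and 124, picked after seeing the data. Without arrays 22 and 23, 8 of the 36 genes rose in the first series: Xbp1, Sdf2l1, Calr, Hyou1, Pdia3, Asns, Phgdh and Mthfd2. The genes that passed over the whole array then numbered 682 in place of 3650, and the mean over the 36 genes differed by 0.28 in place of 0.38. Without arrays 117 and 124, a removal chosen after seeing the data, 6 rose in the second series: Hspa5, Hyou1, Sdf2l1, Psat1, Phgdh and Shmt2. There 1032 genes passed in place of 2154, and the mean differed by 0.21 in place of 0.30. Leaving out array 117 alone gave a count of 11. Fitted on the arrays compared alone, 17 genes passed in the first series and 9 in the second.

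Loss of caspase-8 gave smaller differences. In the second series, against Casp8 fl/fl, 2 of 36 genes rose, Phgdh and Psat1, and none fell, beside 1.80% and 0.662% of all genes; 10 reached an unadjusted p under 0.05, beside 18.3% of all genes, the median was 0.16 and 30 lay above 0. CASP8 IEC-KO arrays are given in the order 87, 92, 100, 104, 108. Phgdh read 6.55, 5.66, 6.28, 6.46 and 5.91, all above the highest Casp8 fl/fl array at 5.65, array 92 only just (0.74, SE 0.14, adjusted p = 0.0105). Psat1 read 7.00, 6.44, 6.89, 7.16 and 6.51 beside a highest floxed array of 6.40 (0.72, SE 0.18, adjusted p = 0.0251). Asns read 9.15, 8.50, 9.01, 9.56 and 8.53, of which arrays 92 and 108 lay within the floxed range of 8.39 to 8.69 (0.41, adjusted p = 0.149). Arrays 87, 100 and 104 were thus high for all 3 enzymes.

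The ER genes of CASP8 IEC-KO lay closer to floxed. Xbp1 read 10.22, 10.36, 9.96, 10.06 and 10.08 (0.16, 95% interval -0.03 to 0.35), Hspa5 11.39, 11.38, 11.30, 11.50 and 11.43 (0.20, -0.05 to 0.45) and Sdf2l1 8.10, 7.72, 7.75, 8.11 and 7.22. Sdf2l1 was high on arrays 87 and 104 and lowest on array 108, and did not pass (0.26, adjusted p = 0.274). The 2 calls depend on single arrays: without array 87 or without array 104 none passed, without array 108 there were 4, and without the floxed array 91, 105 or 119 there was 1. Fitted on these 10 arrays alone, without the spread of the other groups, none passed. Plasma cell, neutrophil and smooth muscle markers had 0 that passed in this comparison, with median differences of 0.36, 0.20 and -0.40; array 104 had a neutrophil mean of 5.98. Of 5 fibroblast markers 2 fell (list mean -0.55, SE 0.14), as did 2 of 4 endothelial (-0.47, SE 0.11), 1 of 10 goblet and 1 of 8 pancreatic acinar markers, and 1 of 13 epithelial markers rose. The part of these markers in the result was not tested.

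In the first series CASP8 IEC-KO against Fadd fl/fl gave 0 of 36 (limma), beside 0.123% of all genes, with a median of 0.13. An unadjusted p under 0.05 was reached by 8, beside 11.7% of all genes. For arrays 16 to 20 Xbp1 read 10.25, 10.28, 10.28, 10.52 and 10.00, Hspa5 11.38, 11.71, 11.48, 11.74 and 11.16, and Asns 8.63, 8.90, 8.59, 8.97 and 8.66. These groups overlapped with the floxed arrays. The largest differences were those of Shmt2, 0.34 (95% interval -0.01 to 0.69), and Mthfd2, 0.33 (0.06 to 0.60, adjusted p = 0.319). Marker list means below those of Fadd fl/fl included fibroblast (9.34 against 9.74), smooth muscle (10.72 against 11.03) and goblet markers (10.95 against 11.16). The endothelial mean was nearly level (7.45 against 7.42), and the plasma cell (6.28 against 5.97) and epithelial means (11.13 against 11.02) were higher. The part of these markers was not tested.

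Set directly against FADD IEC-KO, as the mean of the differences within the series, CASP8 IEC-KO had 14 of 36 genes lower and none higher, beside 3.00% of all genes that were lower. The median was -0.21. The 14 were Xbp1, 7 of 10 chaperones, the 3 disulfide isomerases, Asns, Psat1 and Shmt2. P4hb (-0.35, SE 0.08, adjusted p = 0.00434), Hyou1 (-0.47, SE 0.11, adjusted p = 0.00733) and Dnajc3 (-0.30, SE 0.07, adjusted p = 0.00814) had the smallest adjusted p, followed by Hsp90b1 (-0.32, adjusted p = 0.00964), Xbp1 (-0.27, adjusted p = 0.0108) and Sdf2l1 (-0.35, adjusted p = 0.0158). No gene of the degradation group or of the late stress targets passed.

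Within the first series 11 genes were lower in CASP8 IEC-KO, beside 3.44% of all genes, and within the second 0 (limma), beside 0.0872%. There 12 had an unadjusted p under 0.05, beside 10.1% of all genes. P4hb differed by -0.48 in the first series and -0.23 (95% interval -0.44 to -0.01) in the second, Hyou1 by -0.61 and -0.32 (-0.63 to -0.01), and Xbp1 by -0.33 and -0.22 (-0.41 to -0.03). All 6 named genes had the same sign in both series. They were named by the mean of the 2 differences, so this shared sign is no separate support. Their adjusted p in the second series ran from 0.38 to 0.523 (limma). The comparison rests on few arrays: without arrays 22 and 23 none of the 14 passed, nor without arrays 117 and 124, and leaving out array 92, 108, 22, 23, 117 or 124 alone left 6 and array 16, 18 or 100 left 7. Fitted on the arrays of these groups alone, none passed. Neutrophil (5 of 8), macrophage (7 of 8) and plasma cell (2 of 10) markers were lower and smooth muscle markers (8 of 10) higher in CASP8 IEC-KO. Goblet cell markers were lower too, 6 of 10, with a list mean of -0.19 (SE 0.06), -0.23 in the first series and -0.15 in the second, as were 2 of 5 T cell markers. The part of these markers was not tested.

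Loss of Zbp1, the nucleic acid sensor upstream of RIPK3, on top of FADD was compared with FADD IEC-KO of the first series. In the double mutant 15 of 36 genes fell and none rose, beside 5.14% of all genes that fell and 5.61% that rose. The median was -0.33, and 33 lay below 0. They comprised 8 of 10 chaperones, 2 of 5 amino acid enzymes (Asns, Psat1), Atf4 and Eif2ak3 among the regulators, P4hb, Edem1 and Sel1l. Psat1, in the order of arrays 1 to 5, read 6.07, 6.16, 6.40, 6.63 and 6.23, all below the lowest FADD IEC-KO array at 6.64, array 4 only just (-0.89, SE 0.18, adjusted p = 0.00165). Sdf2l1 read 7.56, 7.46, 7.67, 7.99 and 7.78 beside a lowest FADD IEC-KO array of 8.04 (-0.61, SE 0.13, adjusted p = 0.00202). Asns read 8.56, 8.70, 8.80, 8.80 and 8.57, again below every FADD IEC-KO array (-0.68).

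Xbp1 and Hspa5 gave different calls, a difference between genes that was not tested. Xbp1 read 10.53, 10.12, 10.26, 10.51 and 10.36 in FADD IEC-KO Zbp1 -/-, with arrays 1 and 4 inside the FADD IEC-KO range, and did not pass (-0.24). Hspa5 read 11.66, 11.13, 11.24, 11.58 and 11.42, below every FADD IEC-KO array, and fell by 0.37. Atf4 read 9.67, 9.55, 9.73, 9.52 and 9.43, every array below the lowest of FADD IEC-KO at 9.75, and fell by 0.39. Calr fell by 0.51 (SE 0.10, adjusted p = 0.00176), Dnajc3 by 0.44 (SE 0.10, adjusted p = 0.00348), P4hb by 0.47 (SE 0.11, adjusted p = 0.00391) and Edem1 by 0.34 (SE 0.08, adjusted p = 0.00411). Creld2 fell by 0.75, Hyou1 by 0.60, Dnajb11 by 0.52, Dnajb9 by 0.34, Sel1l by 0.33 and Eif2ak3 by 0.31. Of the 9 genes with the ER stress response element 4 fell, against 10 of 23 without it.

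Loss of Mlkl, which encodes the executioner of necroptosis, gave fewer calls. In FADD IEC-KO Mlkl -/- 6 of 36 genes fell and none rose, beside 2.93% of all genes that fell and 2.91% that rose; the median was -0.23. In the order of arrays 11 to 15 Asns read 8.57, 8.41, 8.48, 8.34 and 8.65, all below the lowest FADD IEC-KO array at 8.88 (-0.87, SE 0.16, adjusted p = 0.00125). Psat1 read 6.32, 6.41, 6.31, 6.22 and 6.64, all below the lowest FADD IEC-KO array, array 15 only just (-0.81, SE 0.18, adjusted p = 0.00573). P4hb read 9.80, 9.71, 9.45, 9.41 and 9.61 beside a lowest FADD IEC-KO array of 9.81 (-0.50, SE 0.11, adjusted p = 0.00462). Edem1 fell by 0.32 (SE 0.08, adjusted p = 0.0101), Shmt2 by 0.62 (SE 0.17, adjusted p = 0.0220) and Calr by 0.37 (SE 0.10, adjusted p = 0.0257).

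Array 15 was the highest of this group for Hspa5, Sdf2l1 and Xbp1. Hspa5 read 11.66, 11.43, 11.61, 11.29 and 12.26, Sdf2l1 7.98, 7.77, 7.97, 7.72 and 8.33, and Xbp1 10.31, 10.23, 10.30, 10.17 and 10.62. Asns on the same array, at 8.65, stayed below every FADD IEC-KO array. Hspa5 differed by -0.13 (95% interval -0.38 to 0.12), Sdf2l1 by -0.35 (adjusted p = 0.0907) and Xbp1 by -0.27 (adjusted p = 0.0759). The count moved with single arrays: without array 21 it was 14, without array 24 it was 10, without array 15 it was 12 and without array 22 it was 4. Calr and Shmt2 no longer passed without array 22, 23, 12 or 14.

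The Zbp1 and Mlkl comparisons share the 5 FADD IEC-KO arrays. Fitted on the arrays compared alone, 2 of the 36 genes passed for Zbp1 and none for Mlkl. Without arrays 22 and 23 none of the 15 and none of the 6 passed, and the genes passing over the whole array numbered 121 in place of 2096 and 8 in place of 1140. The mean over the 36 genes then differed by -0.22 in place of -0.32 for Zbp1 and by -0.15 in place of -0.25 for Mlkl. Of the marker lists, 7 of 8 neutrophil markers fell in both co-deletions, 4 and 3 of 10 plasma cell markers fell, 1 and 3 of 8 macrophage markers fell, and 9 and 10 of 10 smooth muscle markers rose. Goblet cell markers had 2 that rose and 2 that fell with Zbp1 loss and 2 and 1 with Mlkl loss. The part of these markers was not tested.

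Deletion of Ripk3, the kinase that activates MLKL, in the epithelium was compared with FADD IEC-KO of the second series. Shmt2 alone fell, beside 0.595% of all genes that fell; 14 of 36 reached an unadjusted p under 0.05, beside 14.6% of all genes, and the median was -0.17. In the order 88, 93, 112, 113, 123 Shmt2 read 6.71, 6.60, 6.55, 6.40 and 6.45 in the co-deletion, against 7.32, 7.08, 7.65, 7.29 and 7.42 in FADD IEC-KO and 6.22, 6.49, 6.49, 6.77 and 6.69 in Casp8 fl/fl. It thus lay in the floxed range and apart from FADD IEC-KO (-0.81, SE 0.17, adjusted p = 0.0208). Psat1 differed by -0.60 (95% interval -0.96 to -0.23, adjusted p = 0.0939), Asns by -0.51 (-0.82 to -0.19, adjusted p = 0.108) and Xbp1 by -0.24 (-0.43 to -0.05, adjusted p = 0.21). Xbp1 read 10.19, 10.09, 10.26, 10.01 and 10.05, Hspa5 11.21, 11.57, 11.44, 11.52 and 11.56, and Asns 8.54, 8.54, 8.95, 8.56 and 8.68. The Shmt2 call was lost without array 117, 124 or 113, and without array 95 there were 3 calls. Without arrays 117 and 124 together Shmt2 differed by -0.69 with an adjusted p of 0.155. Of 8 macrophage markers 1 fell (list mean -0.67, SE 0.26). No other marker passed; the T cell list mean was -0.50 (SE 0.27), and median differences were -0.39 for plasma cell, -0.97 for neutrophil and 0.50 for smooth muscle markers. The part of these markers was not tested.

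Loss of Mlkl on top of caspase-8 gave 0 of 36 against CASP8 IEC-KO of the first series (limma), beside 0.421% of all genes, with a median of -0.14. An unadjusted p under 0.05 was reached by 8, beside 13.1%. In the order of arrays 6 to 10 Hspa5 read 11.04, 11.09, 11.20, 11.19 and 11.30, Xbp1 10.05, 10.04, 9.96, 9.89 and 10.11, and Asns 8.53, 8.59, 8.67, 8.60 and 8.65. Creld2 had the largest difference, -0.41 (95% interval -0.77 to -0.04, adjusted p = 0.321), then Hyou1, -0.34 (-0.64 to -0.03, adjusted p = 0.325). Leaving out array 20 gave 1 call. The difference between the effects of Mlkl loss in the CASP8 IEC-KO and FADD IEC-KO backgrounds was tested as an interaction: 0 of 36 passed (limma), beside 0.0154% of all genes, and 5 had an unadjusted p under 0.05, beside 11.0%. The largest was Asns, 0.73 (SE 0.22, adjusted p = 0.235), then Psat1, 0.51 (SE 0.26, adjusted p = 0.459); leaving out array 21 gave 1 call.

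Against the floxed arrays of their series, no co-deletion had a gene of the 36 that passed (limma). Of all genes 1.07% passed in FADD IEC-KO Zbp1 -/-, 0.159% in FADD IEC-KO Mlkl -/-, 0.0769% with RIPK3 loss and 0.0462% in CASP8 IEC-KO Mlkl -/-. At an unadjusted p under 0.05 the counts, in the same order, were 5, 10, 6 and 2 of 36, beside 12.7%, 9.38%, 10.7% and 8.19% of all genes. Median differences were 0.03, 0.11, 0.10 and -0.03. The largest differences were Phgdh (0.40, adjusted p = 0.16) and Shmt2 (0.29) in the Zbp1 group, Atf3 (0.54, adjusted p = 0.417) and Hspa5 (0.37, adjusted p = 0.277) in the Mlkl group, and Phgdh (0.50, adjusted p = 0.146) and Hyou1 (0.46) in the RIPK3 group. In CASP8 IEC-KO Mlkl -/- they were Ern2 and Herpud1, -0.30 each. A missed threshold does not make these groups equal to floxed. Xbp1 differed by 0.29 (95% interval 0.10 to 0.48) in FADD IEC-KO Zbp1 -/- and 0.26 (0.07 to 0.44) in FADD IEC-KO Mlkl -/-. Asns differed by 0.26 (-0.06 to 0.57) and 0.06 (-0.26 to 0.38). In FADD IEC-KO Zbp1 -/- the differences of these genes were close and the interval of Asns was wider. The genes were not tested against each other. Casp8 fl/fl and Fadd fl/fl, which differ in line and series, gave 0 of 36 (limma), beside 0.0359% of all genes, with 2 at an unadjusted p under 0.05, beside 10.1%. The largest differences were those of Mthfd2 (0.24) and Atf4 (-0.23).

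Other genes of the pathway were read from 6 further lists with 124 measured genes. In FADD IEC-KO of the first series 51 rose and 4 fell, beside 8.59% and 10.1% of all genes, and in the second 41 rose and 2 fell, beside 6.80% and 4.25%. The genes that load transfer RNAs with amino acids rose in 11 of 16 and 7 of 16 cases, led by Wars (1.14), Vars (0.77) and Gars (0.47) in the first series and Gars (0.47), Vars (0.71) and Wars (0.83) in the second. Wars is also induced by interferon gamma. Of 33 genes of translocation into the ER and transport to the Golgi 18 rose in the first series, among them Ssr1 (0.38), Ostc (0.50) and Rpn2 (0.51). In the second 17 rose, led by Ssr2 (0.69), Ostc (0.56) and Dad1 (0.51), and Sec62 fell by 0.27. These encode parts of the translocon and of the complex that attaches N-linked glycans.

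Of 35 further folding and degradation genes 14 rose and 3 fell in the first series, with Fkbp11 (0.69), Fkbp2 (0.42) and Uggt1 (0.44) having the smallest adjusted p, and 8 rose and 1 fell in the second, led by Ppib (0.39), Edem2 (0.43) and Txndc5 (0.48). Amino acid transporters rose in 4 of 11 cases and 1 fell in the first series, Slc7a5 by 0.71, the cystine importer Slc7a11 by 1.20 and Slc7a1 by 0.33, and in 5 of 11 in the second, led by Slc43a1 (0.60), Slc3a2 (0.29) and Slc1a4 (0.66). Of 11 further serine, proline and one-carbon genes 2 rose in the first series, Aldh18a1 (0.40) and Mthfd1l (0.45), and 4 in the second, led by Got1 (1.05), Mthfd1 (0.40) and Aldh18a1 (0.27). Of 18 further genes of the integrated stress response Eif2ak2 (0.54), itself an interferon-induced kinase, and Ppp1r15b (0.33) rose in the first series. None passed in the second (limma), and 5 had an unadjusted p under 0.05, beside 26.1% of all genes.

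The same 124 genes were read in the other comparisons. CASP8 IEC-KO of the second series had 7 that rose, among them Vars (0.54), Wars (0.59) and Ostc (0.43), and 2 that fell, Erlec1 (-0.39) and Fkbp7 (-0.53), beside 1.80% and 0.662% of all genes. That of the first series had 0 (limma), and 24 had an unadjusted p under 0.05, beside 11.7% of all genes. CASP8 IEC-KO against FADD IEC-KO had 20 lower, among them Lars (-0.34), Rpn1 (-0.34) and Ssr2 (-0.31), beside 3.00% of all genes. In FADD IEC-KO Zbp1 -/- 35 fell and 6 rose, beside 5.14% and 5.61% of all genes. Wars fell by 0.93, Fkbp11 by 0.67, Ero1a by 0.81 and Slc7a11 by 1.19, while Cth rose by 0.67, Slc1a5 by 0.39 and Kdelr1 by 0.36. In FADD IEC-KO Mlkl -/- 26 fell and 1 rose, beside 2.93% and 2.91%, with Wars (-0.92), Fkbp11 (-0.60), Slc7a11 (-1.06), Nupr1 (-0.73) and Ddit4 (-0.64) among those that fell. In FADD IEC-KO RIPK3 IEC-KO Ppib (-0.31), Got1 (-0.73), Ssr2 (-0.43) and Kdelr1 (-0.30) fell, beside 0.595% of all genes, and in CASP8 IEC-KO Mlkl -/- against CASP8 IEC-KO Slc7a5 fell by 0.70, beside 0.421% that passed.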

How the data were processed

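Total RNA of whole mouse colon was measured on 50 Affymetrix arrays, 1 per mouse. Per the labels and the submitters' processing notes, the authors used Affymetrix Expression Console and Transcriptome Analysis Console and deposited log2 signals per probe set; the sources used here name neither the normalization algorithm nor the versions. The deposited log2 values were used unchanged. Of 22142 probe sets, 19527 had 1 gene symbol and 2615 none; 33 probe sets of a gene already represented were dropped in favour of the one with the highest mean, leaving 19494 genes.

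One linear model over 10 groups of 5 arrays was fitted with limma 3.58.1 in R 4.3.3 (lmFit, eBayes; 40 residual degrees of freedom), with Benjamini-Hochberg adjustment over all genes and a threshold of 0.05. Errors of differences are the model's SE, from a spread per gene shared by all groups. The procedure was tested on simulated data in which each gene had the same spread in all groups. That test does not cover groups of unequal spread, such as FADD IEC-KO. The genes and the pathway and marker lists were chosen with earlier results of these data known. Named by rule were 12 genes with values per array, and in each comparison up to 6 passing genes with the smallest adjusted p, or the 2 largest differences where none passed, and up to 3 passing genes per pathway list; other names were chosen after their values were seen. Alternatives were the arrays compared alone, quantile normalization, a filter on dim genes, trend and robust moderation, group variance weights, a minimum difference, pooled series and omitted arrays. Promoter sequences are from RefSeq (GRCm38.p6).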

Additional observations from a re-analysis of the deposited data

Results flagged for a closer look

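Of 190 groups of 5 arrays examined over the list mean, the role means and single genes, 7 had 1 array set apart from the other 4 by more than Dixon's 95% critical value of 0.71; chance gives about 1 in 20 groups. The mean over the 36 genes was 8.57 on array 4 of FADD IEC-KO Zbp1 -/-, with the others between 8.36 and 8.41. The mean of the sensors and transcription factors was 9.08 on array 26 of Fadd fl/fl, with the others between 8.83 and 8.89. The same mean was lowest, at 8.82, on array 120 of FADD IEC-KO in the second series, with the others between 8.90 and 8.93. The disulfide isomerases averaged 10.11 on array 113 of FADD IEC-KO RIPK3 IEC-KO, with the others between 9.94 and 9.97. The degradation and export genes averaged 8.49 on array 16 of CASP8 IEC-KO in the first series, below the others at 8.59 to 8.63. The amino acid enzymes averaged 6.42 on array 86 of Casp8 fl/fl, below the others at 6.59 to 6.64. Ddit3 read 8.54 on array 27 of Fadd fl/fl, with the others between 8.08 and 8.21.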

How the results depend on the processing

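Of 636 values under an alternative for the 33 named gene results that passed, 559 still passed in the same direction, 77 no longer passed and 0 reversed; the other 16 did not pass here or under any of their 278 alternative values. Counts of the 36 genes moved more. Fitted on the arrays compared alone, the count was 9 in place of 18 for FADD IEC-KO of the second series. It was 0 in place of 2 for CASP8 IEC-KO of that series and 0 in place of 14 for CASP8 IEC-KO against FADD IEC-KO. For Zbp1 and Mlkl loss it was 2 in place of 15 and 0 in place of 6. Only the arrays compared then set the spread, and the cause of the lower counts was not tested. With a difference of at least 0.5 required as well, counts were 15 and 8 for FADD IEC-KO of the first and second series, 0 for CASP8 IEC-KO against FADD IEC-KO and 7 for Zbp1 loss. Leaving out arrays 22 and 23, chosen after seeing the data, gave 8 for FADD IEC-KO of the first series. It gave 0 in the CASP8 against FADD, Zbp1 and Mlkl comparisons. Without arrays 117 and 124, chosen after seeing the data, 6 passed for FADD IEC-KO of the second series and 0 in the CASP8 against FADD and RIPK3 comparisons. Group variance weights gave 6 for CASP8 IEC-KO against FADD IEC-KO, and the filter on dim genes 1 for CASP8 IEC-KO of the second series. Pooling both series with a series term gave a single count of 3 for CASP8 IEC-KO, beside 0 in the first series and 2 in the second. That count covers the arrays of both series and does not belong to the first alone. The cause of these changes was not tested.

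Leaving out 1 array at a time gave 19 to 25 for FADD IEC-KO of the first series, 11 to 19 for the second, 0 to 4 for CASP8 IEC-KO of the second series and 0 for the first. It gave 6 to 19 for CASP8 IEC-KO against FADD IEC-KO, 11 to 21 for Zbp1 loss, 4 to 14 for Mlkl loss, 0 to 3 for RIPK3 loss, 0 to 1 for Mlkl loss on CASP8 IEC-KO and 0 to 1 for the interaction. The difference in the list mean stayed between 0.33 and 0.43 for FADD IEC-KO of the first series and between 0.25 and 0.34 for the second. No paired analysis was possible because the title numbers are unique to each array and shared by no groups. With 5 arrays a group, small differences may be missed, and genes near background can have compressed differences.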
